A study of Drosophila melanogaster with 33 samples.

Results

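Ada2b loci on the X chromosome are stretches of the X where Ada2b chromatin immunoprecipitation (ChIP) gave a peak in both of 2 libraries from Ataxin-7 mutant embryos of Drosophila melanogaster. A peak on X was kept if it shared 1 bp or more with any peak called in the other library, and kept peaks of both lists that overlapped or touched were merged into loci. This gave 584 loci on X, of 3750 loci on all sequences of the genome build dm3. The same steps gave 2940 loci on the autosome arms 2L, 2R, 3L and 3R, which serve as the comparison throughout and are called the autosome arms. Heterochromatic X sequence was not counted as X.

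The series holds 33 ChIP-Seq libraries, 14 of them wild type and 19 Ataxin-7 mutant, for Ada2b, histone H2B, ubiquitinated H2B, H3, the acetyl marks H3K9ac and H3K14ac, and total chromatin. Only the 2 Ada2b libraries are used here, called replicate 1 and replicate 2, and both are mutant. No Ada2b library was wild type, so nothing below compares genotypes. The embryos were 1-3 hr old and at stages 4-6, from blastoderm to early gastrula, were grown at 25°C and were fixed with formaldehyde, and the antibody was raised in rabbit against an N-terminal part of Ada2b. The labels name neither the Ataxin-7 allele nor the sex of the embryos, so the number of X copies behind the values is not known, and they do not say how far the 2 libraries come from separate collections of embryos.

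Ada2b is the partner of the acetyltransferase Gcn5 in the SAGA complex, which acetylates histone H3 near promoters, and in smaller complexes built on the same acetyltransferase module. Ataxin-7 tethers the deubiquitinase module, which removes ubiquitin from H2B, to the rest of SAGA. Male flies carry a single X, whose transcription is later raised by the dosage compensation complex, and the acetyl mark known for that is on histone H4 and is laid down by another enzyme. Gene annotation and sequence of dm3 were not used here, so loci are given by position alone.

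To ask whether Ada2b peaks on X were found again as often as those elsewhere, the lists were overlapped. Replicate 1 had 713 peaks on X, and 594 of them (83.3%, 95% Wilson interval 80.4% to 85.9%) were found in replicate 2. Over all sequences, the share found in both lists was 81.8% in replicate 1 and 85.2% in replicate 2. Replicate 2 had 684 peaks on X, of which 591 (86.4%, interval 83.6% to 88.8%) were found in replicate 1. The X was thus close to the background share in each list. Against the autosome arms, the difference was 1.48 percentage points in replicate 1 (interval -1.68 to 4.34, two-sided Fisher's exact test, p = 0.364, adjusted p = 0.547). In replicate 2 it was 0.51 points (interval -2.48 to 3.16, two-sided Fisher's exact test, p = 0.763, adjusted p = 0.788). Neither difference passed the threshold of an adjusted p of 0.05 over the 12 tests made, and the intervals allow a few points in either direction. Leaving out peaks at the lowest background of their list before overlapping, which was chosen after seeing the data and removes partners of the remaining peaks by construction, turned the differences to -2.74 and -20.5 points (two-sided Fisher's exact test, adjusted p = 0.521 and adjusted p = 1.54e-17). Counting peaks up to 500 bp apart as found in both turned that of replicate 2 to -0.40 points.

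The X peaks left out, 119 in replicate 1 and 93 in replicate 2, were weaker and narrower by their medians, although 1 of replicate 1 reached a fold enrichment of 12.3. Their median fold enrichment, the ratio of ChIP pileup to local background at the summit, was 2.50 in replicate 1 and 2.72 in replicate 2. X peaks found in both lists had medians of 3.63 and 4.06. The median width was 239 bp for peaks of replicate 1 alone and 321 bp for those found in both, and in replicate 2 it was 229 bp against 319 bp. Of the peaks found in 1 list, 27 of 119 and 24 of 93 lay within 1 kb of an X peak of the other list.

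At the loci themselves, the lists ranked the X in much the same order. Over the 571 X loci that held 1 peak of each list, Spearman's rho between the −log10 q-values of the lists was 0.895, and between the peak widths it was 0.750. On the autosome arms, over 2856 such loci, the values were 0.895 and 0.737. These correlations are over loci that share the same 2 libraries, and they are given as a description.

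Fewer Ada2b loci were called per Mb on X than on the autosome arms. The X carried 26.1 loci per Mb between its first and last peak, a span of 22.4 Mb, and the autosome arms carried 30.5 per Mb. The ratio was 0.856 (95% Clopper-Pearson interval 0.782 to 0.935, two-sided exact binomial test, p = 5.22e-04, adjusted p = 0.00402). Single arms held 27.6 per Mb on 3L, 29.0 on 2L, 31.3 on 3R and 34.3 on 2R. The X was therefore below all 4 arms. The lists alone gave ratios of 0.842 and 0.845 from 713 and 684 X peaks, a mean of 698.5 ± 20.5 (SD, n = 2 lists). In base pairs, loci covered 10.7 kb per Mb of X against 12.0 to 15.2 kb per Mb of the single arms. X loci also lay over a lower median background, 24.6 against 29.1 fragments in replicate 1 and 18.7 against 21.6 in replicate 2. Whether read depth on X had a part in the lower density was not tested.

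The call of a lower density was not kept in every setting. When each list was cut to its upper 50% by score, the ratio was 0.909 and the call was lost (two-sided exact binomial test, p = 0.127, adjusted p = 0.371). That ratio was inside the interval of the main ratio, and it came from fewer loci, 319 on X and 1511 on the autosome arms. With peaks at the lowest background of their list left out before the lists were overlapped, an alternative chosen after seeing the data, the ratio was 0.434 and the call was kept (exact binomial test, adjusted p = 5.82e-40). X loci had the lowest background far more often than autosomal loci (values below), so this alternative takes more from X by its construction. Loci are not replicates, and the p-values here and below describe these 2 lists and not a population of embryos.

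Strong loci were as frequent on X as the share of all loci there. Of the 100 loci of these 5 arms with the best mean rank of the score over both lists, 18 were on X (18.0%). Of the best 500, 83 were on X (16.6%), and of the best 1000, 167 (16.7%). The X held 16.6% of all loci of the 5 arms.

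The X loci ran from chrX:20262-20546 to chrX:22415042-22415421 and spread unevenly between. In the 22 whole windows of 1 Mb counted from the first locus, the number ranged from 9 to 43 with a median of 26. The fullest windows began 16 Mb, 15 Mb and 11 Mb from the first locus, with 43, 42 and 42 loci. The emptiest began at 12 Mb and held 9 loci, directly beside a window of 42. Only 3 windows held more than 40 loci and 4 held under 20.

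The unevenness of X lay within the range of the autosome arms. The variance of the window counts was 2.80 times their mean, where independent placement would give a ratio near 1. The single autosome arms ranged from 1.66 on 2R to 3.97 on 3R. A test that takes loci as independent, such as the density test above, therefore gives p-values that are too small and intervals that are too narrow. Over 3 equal parts of the span, the X held 192, 181 and 211 loci, shares of 32.9%, 31.0% and 36.1%. The last of these parts, which ends nearest the centromere, had the highest density on X, 28.3 per Mb. Median widths in the same parts were 361, 353 and 344 bp.

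**Figure D1:**
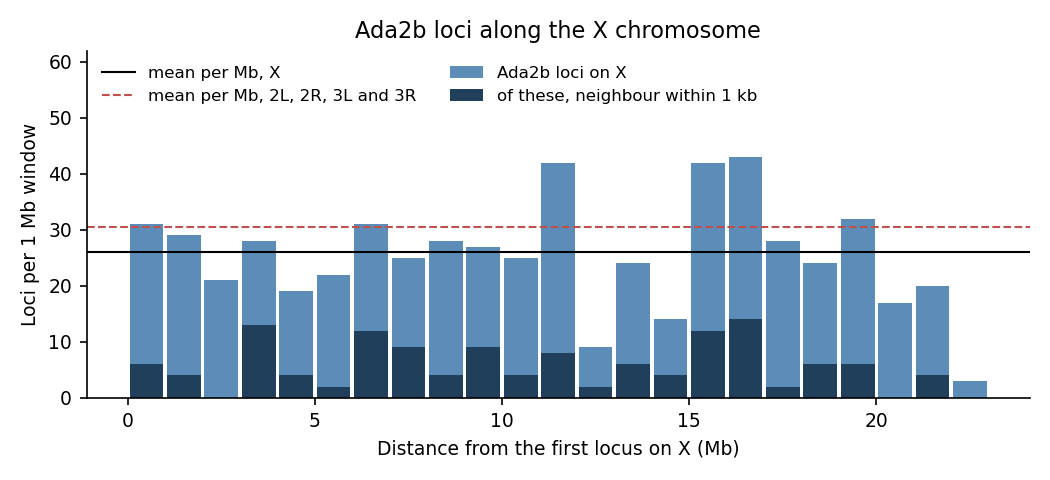
Number of Ada2b loci (vertical axis) in consecutive 1 Mb windows along X (horizontal axis, Mb from the first locus), with the loci that have a neighbour within 1 kb in dark blue and the mean per Mb on X (26.1, solid line) and on the autosome arms (30.5, dashed line). Whole windows range from 9 to 43 loci, with the lowest next to a window of 42, and the last bar is a partial window of 3 loci.

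Between X loci the median gap was 16897 bp (95% interval 14437 to 19807 bp, 583 gaps), and the shortest was 53 bp. On the autosome arms the median was 14753 bp (interval 13882 to 15603 bp, 2936 gaps). Single arms ranged from 13637 bp on 2R to 17941 bp on 3L, and the X lay inside that range. The mean gap, which was not tested, was 38003 bp on X and 32418 bp on the autosome arms. Single arms had means from 28771 bp on 2R to 35814 bp on 3L, all below that of X. The share of gaps above the pooled median was 53.5% on X and 49.3% on the autosome arms, a difference of 4.23 points (interval -0.21 to 8.63, two-sided exact median test, p = 0.0631, adjusted p = 0.133). The median gap on X was thus not shown to differ, although the interval reaches to a shift of several points. With peaks at the lowest background left out before overlapping, the difference was 18.2 points (exact median test, adjusted p = 5.93e-07), with 227 gaps left on X.

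Long gaps made up much of the chromosome. On X, 65 of 583 gaps (11.1%) were longer than 100 kb, against 8.11% on the autosome arms and 6.22% to 9.47% on single arms. The difference was 3.04 points (interval 0.51 to 6.01). These gaps together spanned 47.8% of X, against 39.2% of the autosome arms and 33.6% to 43.7% of single arms. The length of 100 kb was chosen after the gaps had been seen, so no test is given.

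The longest gap on X was 378892 bp, from chrX:12098010 to 12476901. It held no peak of replicate 1 and 2 peaks of replicate 2 that were not found again. The locus before it was weak, with fold enrichments of 2.60 and 2.10, and the locus after it, chrX:12476902-12477519, reached 7.04 and 9.22. The next gaps were 350431 bp, from 4833353 to 5183783, and 342586 bp, from 21883936 to 22226521. In all 3 cases the locus at the left edge had a fold enrichment under 3 in both lists and the locus at the right edge was above 4 in both. On single autosome arms the longest gap ranged from 329829 bp on 2R to 371955 bp on 2L, so the longest X gap was the longest of the 5 arms.

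**Figure D2:**
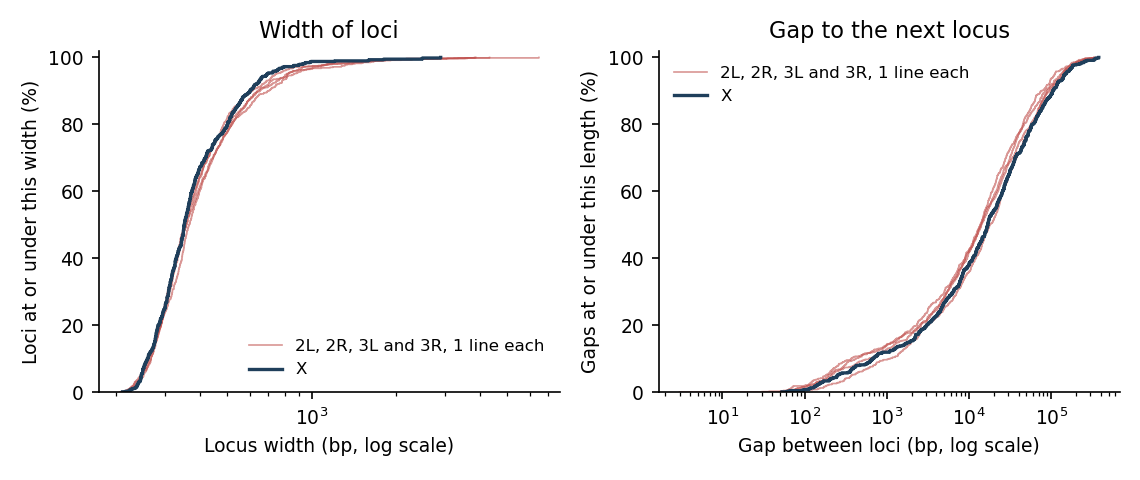
Cumulative share of loci by width (left, bp, log scale) and of gaps between neighbouring loci by length (right, bp, log scale), with X as a dark blue line and 2L, 2R, 3L and 3R as a red line each. The X width line reaches its top sooner, since 1.20% of X loci against 3.03% of autosomal loci are wider than 1000 bp, and the X gap line lies at the right edge of the arms at long gaps.

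No difference in close neighbours was detected. A neighbour within 1 kb was present for 131 of 584 X loci (22.4%) and for 23.0% of autosomal loci. The difference was -0.60 points (interval -4.15 to 3.26, two-sided Fisher's exact test, p = 0.788, adjusted p = 0.788). Single arms ranged from 18.2% on 3L to 25.4% on 2L. The difference turned to 0.97 points in the upper 50% of peaks by score and to 0.69 points when loci within 500 bp were merged. These X loci formed 61 runs, of which 56 were pairs, 2 had 3 loci and 3 had 4 or more.

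The longest run on X held 5 loci in 3997 bp, chrX:9578183-9582179. Its loci differed widely in strength, with fold enrichments that went from 2.81 up to 11.2 in replicate 1 and reached 14.3, from a lowest value of 3.21, in replicate 2. The longest runs on the single arms held from 4 to 11 loci, with 11 on 2R. X loci with a neighbour within 1 kb had a median width of 358 bp, against 349 bp for the other 453. On the autosome arms the same medians were 390 bp and 351 bp. Isolated X loci were the stronger ones. The 41 without a neighbour within 50 kb had median fold enrichments of 4.06 and 4.82, against 3.39 and 3.86 for those with a neighbour within 1 kb. The autosome arms gave 3.71 and 4.47 for isolated loci against 3.13 and 3.67.

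The densest 100 kb of X held 13 loci, from chrX:15734161 to 15828468, in a 1 Mb window of 42. Their fold enrichments were moderate. In replicate 1 the lowest was 2.65 and the highest 4.68, and replicate 2 gave 2.71 and 6.15. Of the 13, 8 had a neighbour within 1 kb, and merging loci within 500 bp left 9. The next densest windows held 11 loci, from 16493096 to 16590039, and 10 loci, from 510978 to 581106. Each autosome arm had a window at least as dense as the densest on X, with 13 loci on 3R, 14 on 3L, 15 on 2L and 20 on 2R.

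X loci were narrow. Their width had a median of 350.5 bp (95% interval 344 to 360 bp), quartiles of 298.75 and 451 bp and a range from 211 to 2889 bp. On the autosome arms the median was 357 bp (interval 352 to 362 bp), with single arms from 352 bp on 3L to 364.5 bp on 2R. The X median was the lowest of the 5 arms, but its interval held the medians of 3L, 2L (356 bp) and 3R (357 bp), and only that of 2R lay outside. The share of loci above the pooled median differed by -2.53 points (interval -6.94 to 1.90, two-sided exact median test, p = 0.277, adjusted p = 0.475). Without loci at the lowest background of either list, the difference turned to 3.86 points (exact median test, adjusted p = 0.833). On X, 148 loci were under 300 bp, 320 from 300 to 500 bp and 109 above that up to 1000 bp.

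Broad loci were rarer on X. On X, 7 of 584 loci (1.20%, Wilson interval 0.58% to 2.45%) were wider than 1000 bp, against 89 of 2940 (3.03%, interval 2.47% to 3.71%). Single arms ranged from 2.55% on 2L to 3.40% on 3L. The difference was -1.83 points (interval -2.75 to -0.45). This width was chosen after the values had been seen, so no test is given. The share was lower on X under each alternative, but the intervals did not always stay apart. In replicate 1 alone it was 0.84% (0.39% to 1.82%) against 1.73% (1.35% to 2.20%). In replicate 2 alone it was 0.88% (0.40% to 1.90%) against 1.75% (1.36% to 2.24%). Intervals also overlapped with a reciprocal overlap of 50%, in the upper 50% by score and without the outer 1 Mb. They were separate with 500 bp allowed between peaks or loci within 500 bp merged. Among the best-ranked of 3 equal strata of loci, 2 of 209 X loci were that wide (0.96%), against 3.73% on the autosome arms. The share was also lower on X in the other strata, 1.48% against 3.50% and 1.16% against 1.89%.

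Width went with strength on X as elsewhere. Median widths from the best to the last stratum were 378, 337 and 309.5 bp on X, and 400.5, 338 and 325 bp on the autosome arms. In the best stratum the 95% intervals of the medians, 367 to 405 bp on X and 393 to 410 bp on the autosome arms, overlapped. Over 571 X loci, Spearman's rho between peak width and −log10 q-value was 0.549 in replicate 1 and 0.536 in replicate 2. The autosome arms gave 0.453 and 0.527. Width and q-value come from the same pileup, so these values are a description.

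The 5 widest X loci were weak and mostly split. The widest, chrX:18688636-18691524, was 2889 bp and had fold enrichments of 3.24 and 2.92. Of the others, chrX:3752210-3753812 and chrX:3753966-3756452 lay 153 bp apart, at 1603 and 2487 bp, within a run of 4 loci. The loci chrX:6978349-6980155 and chrX:6984553-6987031, with 2 other loci between them, were the only X loci built from 3 peaks of replicate 1 and 2 of replicate 2. Their fold enrichments were 2.36 and 3.07 in the first and 2.69 and 2.61 in the second. In both of these loci the highest summits of the lists were more than 1000 bp apart, at 1235 and 1275 bp.

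The other broad X loci were different. The locus chrX:12552436-12553644 was 1209 bp wide with fold enrichments of 12.5 and 18.3, the third best rank on X, and its summits were 12 bp apart. The locus chrX:8188128-8189721 had a pileup of 329 and 265 fragments over a background of 91.7 and 61.5 fragments, the highest background of any X locus in each list. The narrowest loci were chrX:20954384-20954594 of 211 bp, chrX:15654722-15654937 of 216 bp, and chrX:7819025-7819247 and chrX:10821500-10821722, tied at 223 bp. They had pileups of 60 to 71 fragments in replicate 1 and of 60 to 66 in replicate 2. Loci with more than 1 peak of a list numbered 13 of 584 on X (2.23%) and 2.86% on the autosome arms. The difference was -0.63 points (interval -1.77 to 1.01, two-sided Fisher's exact test, p = 0.488, adjusted p = 0.651).

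Summits on X lay close to the middle of their peaks. The summit is the base with the highest pileup, and its distance from the peak centre is given as a percentage of the distance from centre to edge, over loci with 1 peak of each list. On X the median was 11.2% in replicate 1 (95% interval 10.1% to 12.8%) and 10.1% in replicate 2 (interval 8.71% to 11.8%). The autosome arms had 12.9% and 11.8%. In base pairs the X medians were 17.5 and 15 bp, against 19.5 and 18 bp. X was below all 4 single arms in both lists, which ranged from 12.0% to 13.7% and from 11.3% to 12.8%. By stratum from best to last, replicate 1 gave 8.36%, 10.5% and 17.0% on X against 8.78%, 12.0% and 18.4% on the autosome arms. Replicate 2 gave 8.10%, 7.91% and 16.7% on X against 8.40%, 12.0% and 15.7%, so X was not lower in its last stratum. In the best stratum, single arms such as 2L (7.67% and 7.82%) lay below X in both lists.

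Over all loci with 1 peak of each list, the differences in summit distance did not pass the threshold. In replicate 1 the share of loci above the pooled median was 4.50 points lower on X, a difference of -4.50 (interval -8.95 to -0.01, two-sided exact median test, p = 0.0541, adjusted p = 0.133). In replicate 2 the difference was -4.29 points (interval -8.74 to 0.20, two-sided exact median test, p = 0.0666, adjusted p = 0.133). Measured in base pairs, replicate 2 gave -5.62 points and passed (exact median test, adjusted p = 0.0489). Without loci at the lowest background of either list, which left 219 on X, the difference in replicate 1 turned to 2.28 points (exact median test, p = 0.524, adjusted p = 0.833), while that in replicate 2 kept its direction at -2.24 points (exact median test, p = 0.571, adjusted p = 0.833).

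Summits had no preferred side. In replicate 1, 295 of 571 X summits (51.7%, Wilson interval 47.6% to 55.7%) lay on the lower-coordinate side of the centre, and in replicate 2 it was 291 (51.0%, interval 46.9% to 55.0%). The 2 lists placed the summit on the same side at 347 of 571 X loci (60.8%, interval 56.7% to 64.7%), against 59.4% on the autosome arms. The central 50% of the peak held 548 of 571 summits on X (96.0%) in each list.

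The lists agreed on the summit to well within the width of a peak at most loci. The separation of the 2 summits had a median of 18 bp on X (95% interval 16 to 21 bp) and 18 bp on the autosome arms. The share above the pooled median differed by 0.82 points (interval -3.66 to 5.30, two-sided exact median test, p = 0.748, adjusted p = 0.788). Separations over 50 bp were fewer on X. Summits were within 50 bp at 497 of 571 X loci (87.0%, interval 84.0% to 89.5%) and at 82.5% of autosomal loci, with single arms from 80.0% to 84.2%. The difference of 4.55 points (interval 1.25 to 7.44) concerns a distance chosen after seeing the data and is given with no test. At 100 bp the intervals overlapped, with 94.7% on X (92.6% to 96.3%) and 92.9% on the autosome arms (91.9% to 93.8%). Without loci at the lowest background of either list, the median separation was 21 bp on X and 19 bp on the autosome arms. The share above the pooled median then differed by 5.08 points (exact median test, p = 0.156, adjusted p = 0.833). Among loci with 1 peak of each list, the largest separation on X was 369 bp, against 2288 bp on the autosome arms.

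**Figure D3:**
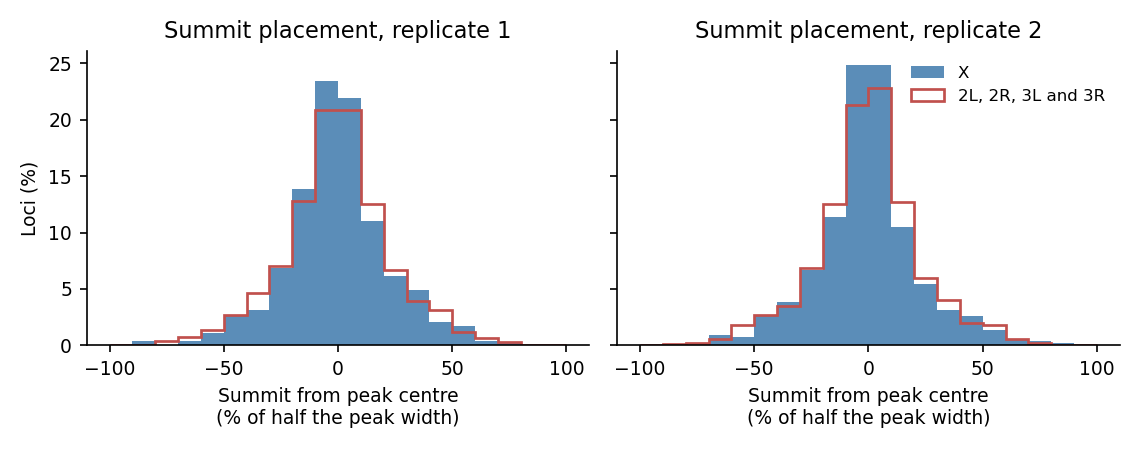
Share of loci (vertical axis, %) by the signed distance of the summit from the peak centre (horizontal axis, % of the distance from centre to edge) in replicate 1 (left) and replicate 2 (right), for X (filled bars) and the autosome arms (red outline), over loci with 1 peak of each list. Both are centred on 0, and X is slightly higher at the centre, with median absolute distances of 11.2% and 10.1% against 12.9% and 11.8%.

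Among X loci with 1 peak of each list, the 5 with the largest separation were wider than the X median. At chrX:11464113-11464770 the summits were 369 bp apart, with fold enrichments of 2.96 and 3.35. At chrX:19415712-19416313 they were 266 bp apart, with fold enrichments of 4.13 and 5.17. The remaining 3, at chrX:4812394-4813018, chrX:16686045-16686540 and chrX:3753966-3756452, were separated by 264, 240 and 221 bp. Agreement of summits rose with strength. From the best to the last stratum the median separation on X was 11, 21 and 31 bp, and on the autosome arms 11, 18 and 34 bp.

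X loci had a higher fold enrichment than the autosome arms, over a lower background. In replicate 1 the median was 3.63 on X (95% interval 3.47 to 3.82) and 3.35 on the autosome arms, with single arms from 3.22 to 3.41. The share above the pooled median was 7.80 points higher on X (interval 3.36 to 12.2, two-sided exact median test, p = 6.70e-04, adjusted p = 0.00402). In replicate 2 the medians were 4.08 (interval 3.91 to 4.35) and 3.87, with single arms from 3.79 to 3.93. There the difference was 5.54 points (interval 1.10 to 9.92, two-sided exact median test, p = 0.0163, adjusted p = 0.0652). The direction was the same in both lists, and replicate 1 passed the threshold. X was above all 4 arms in each.

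The ChIP pileup at the summit did not rise with it. The pileup and the background were recovered, in fragments, from the fold enrichment and the −log10 p-value of each peak. In replicate 1 the median pileup was 96.5 fragments on X (95% interval 93 to 101) against 101 on the autosome arms, and in replicate 2 it was 87 (interval 83 to 92) against 88. The median background was 24.6 against 29.1 fragments in replicate 1 and 18.7 against 21.6 in replicate 2, below every single arm in both lists. Tested in place of the fold enrichment, an alternative added after seeing the data, pileup differed by -4.52 points in replicate 1 (two-sided exact median test, p = 0.0513, adjusted p = 0.160). In replicate 2 pileup differed by -1.34 points (exact median test, p = 0.556, adjusted p = 0.742).

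X loci sat at the floor of the background far more often. The background of a peak cannot fall under a fixed lowest value of its list, 24.6 fragments in replicate 1 and 18.2 in replicate 2. At that value were 310 of 584 X loci (53.1%) in replicate 1 and 264 (45.2%) in replicate 2, against 13.9% and 21.0% on the autosome arms. Single arms ranged from 11.1% to 18.2% and from 15.2% to 25.3%. Without loci at the lowest background of either list, the fold enrichment in replicate 1 differed by 0.76 points between X and the autosome arms (exact median test, p = 0.834, adjusted p = 0.834). In replicate 2 it differed by 2.71 points, with medians of 3.70 on X and 3.62 on the autosome arms (exact median test, p = 0.443, adjusted p = 0.833). In the upper 50% of peaks by score the difference was 7.02 points and the call was also lost (exact median test, adjusted p = 0.181). Ada2b signal over the background and a lower background on X cannot be told apart in the fold enrichment.

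**Figure D4:**
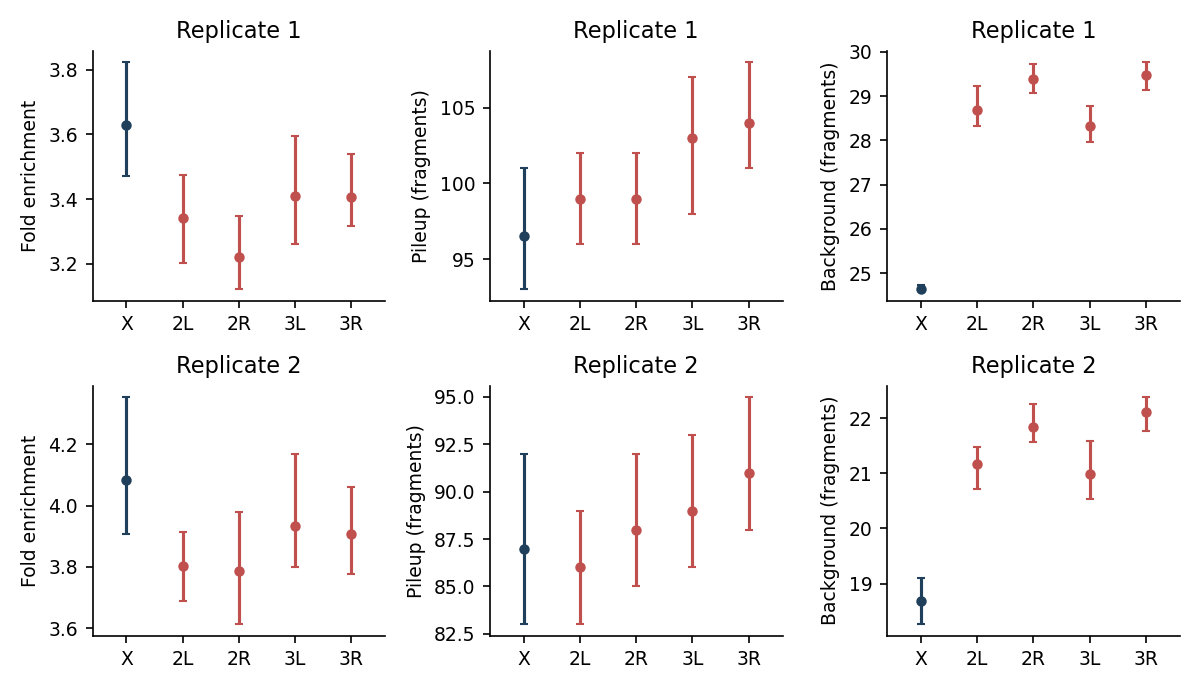
Median fold enrichment (left), pileup (middle, fragments) and local background (right, fragments) at the summits of Ada2b loci on X (dark blue) and on each autosome arm (red), for replicate 1 (top) and replicate 2 (bottom), with 95% order-statistic intervals as bars and vertical axes that do not start at 0. X has the highest fold enrichment, 3.63 and 4.08, and the lowest background, 24.6 and 18.7 fragments, while its pileup of 96.5 and 87 fragments is not above that of the arms together.

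The 10 X loci of best mean rank reached fold enrichments of 9.47 to 13.5 in replicate 1 and of 14.3 to 18.8 in replicate 2, with pileups of 302 to 346 and 279 to 359 fragments. They were wider than most, from 391 to 1209 bp with a median of 556.5 bp. All 10 had summits within 18 bp of each other in the 2 lists. In contrast, their summits were not nearer to the peak centre than at autosomal loci as a whole, since 5 of 10 in replicate 1 and 6 of 10 in replicate 2 lay above the autosomal median distance.

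The locus with the best rank, chrX:3028512-3029371, was 860 bp wide, with summits at 3028729 and 3028744. Its summits were off centre, by 49.4% and 25.4% of the distance from centre to edge. It had a neighbour 1087 bp away. The next, chrX:17645645-17646132, was 488 bp wide with fold enrichments of 13.5 and 17.2, and its summits were nearly central, at 3.65% and 1.26%. The fourth, chrX:1846954-1847392, was 439 bp wide with fold enrichments of 13.0 and 15.1, and was the most isolated of the 10, with its nearest neighbour 29815 bp away. The locus chrX:10726407-10726797 was the narrowest of the 10 at 391 bp, with fold enrichments of 11.8 and 14.6.

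Of the remaining strong loci, chrX:5506952-5507493, 542 bp wide, had fold enrichments of 12.1 and 16.4. The locus chrX:17425856-17426611, 756 bp wide, had summits displaced from the centre in both lists, by 43.5% and 42.3% of the distance to the edge. Both lists placed this summit within 12 bp of each other, 229 and 217 bp from the left edge of the locus. The loci chrX:17614158-17614666, chrX:17714256-17714826 and chrX:423754-424411 were 509, 571 and 658 bp wide. Of the 10, the last had the lowest fold enrichments, 9.47 and 14.3, over the highest background, 31.7 and 21.2 fragments, while its pileup of 309 and 316 fragments was within the range of the others.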

How the data were processed

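Chromatin from 2 Ada2b ChIP libraries of Ataxin-7 mutant embryos was sequenced by the authors, processed with CASAVA 1.8.2 and aligned with Bowtie to dm3, and peaks were called with MACS2, per the labels. Aligner and caller settings and the control given to the caller are not given in the sources used here. The deposited lists, 1 per replicate and not pooled, give for each peak a score, a fold enrichment (a ratio), −log10 p- and q-values and the summit offset. The deposited score equalled 10 times the −log10 q-value, with decimals dropped, in 100% of peaks. Lists were matched to libraries by replicate name.

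Kept peaks, those sharing at least 1 bp between lists, were merged into loci. Loci named are, on X, the 10 of best score rank averaged over the lists, the 5 widest, the 3 narrowest, the 5 with the largest summit separation, up to 3 with the most peaks, those beside the 3 longest gaps, the 3 densest 100 kb windows and the first and last locus. Loci of runs, of width over 1000 bp and of extreme background were singled out after their values were seen. Members and lists were chosen with earlier results of these data known.

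Shares were compared by Fisher's exact test with Newcombe intervals of the difference, medians by an exact median test (Fisher's exact test on the numbers above the pooled median), and density by an exact binomial test, all two-sided, with Benjamini-Hochberg adjustment over 12 tests. Intervals are 95% and cover counting error only. Library totals were not used. Depth was recovered as the pileup k and background λ that give the deposited fold enrichment, (k + 1)/(λ + 1), and the Poisson tail. These returned the deposited −log10 p-values within 1.44e-04 and 2.51e-04. At the median X pileups of 96.5 and 87 fragments, counting noise is about the square root of the pileup. Overlap, merging, recovery and the median test were checked on simulated data. Alternatives were a reciprocal overlap of 50%, a distance of up to 500 bp in place of overlap, the upper 50% by score, the outer 1 Mb of each arm left out, merging within 500 bp, each list alone, midpoint distances, summit distance in bp and base pairs covered; those on background and pileup were added after seeing the data. Tools were scipy 1.17.1, numpy 2.4.6 and pandas 2.3.3 under Python 3.11.15, and plots used matplotlib 3.10.9.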

Additional observations from a re-analysis of the deposited data

How the results depend on the processing

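Of 94 values of the 12 results under the alternatives, 74 kept their direction and their side of the threshold. The density ratio was 0.909 in the upper 50% of peaks by score (exact binomial test, adjusted p = 0.371) and 0.802 for base pairs covered. Both lay inside the interval of the main ratio, 0.782 to 0.935, which is for numbers of loci. The SD of 0.00215 between the ratios of the single lists is for peak counts, so these values were not judged against it. With the upper 50%, close neighbours turned to 0.97 points and fold enrichment in replicate 1, at 7.02 points, lost its call. Allowing 500 bp between peaks turned the share found in both lists to -0.40 points in replicate 2, and merging within 500 bp turned close neighbours to 0.69 points. Summit distance in bp passed in replicate 2 at -5.62 points. Fold enrichment in replicate 2 passed at 6.34 points without the outer 1 Mb of each arm and at 5.95 points in its own list alone, without replicate 1. The causes were not tested. Alternatives chosen after seeing the data moved more. With pileup in place of fold enrichment the differences turned to -4.52 and -1.34 points. Without loci at the lowest background of either list, width turned to 3.86 points, summit distance to 2.28 points in replicate 1 (-2.24 in replicate 2), and fold enrichment was 0.76 points in replicate 1 (2.71 in replicate 2). Leaving out such peaks before overlapping, the form tried first, removes partners of peaks in the other list by construction. It turned the shares found in both lists to -2.74 and -20.5 points (the latter with an adjusted p of 1.54e-17 by Fisher's exact test), width to 4.43 and summit distance in replicate 1 to 2.74 points, brought the gap to 18.2 points past the threshold, and left fold enrichment in replicate 1 at 0 points. The density ratio was then 0.434. Without either replicate, density was 0.842 to 0.845. No paired analysis was possible because all Ada2b libraries are of 1 group, so no groups of samples are compared. X and the autosome arms are set against each other within each list. The lowest pileup at an X locus was 52 fragments in replicate 1 and 42 in replicate 2, against 53 and 41 on the autosome arms.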

Other observations

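Several of the strongest Ada2b loci of X lay in 1 stretch. Of the 10 X loci with the best mean rank, 4 lay within 289 kb, from chrX:17425856 to 17714826 (dm3). The stretch held 13 loci in all, whose median fold enrichment was 5.78 in replicate 1, against 3.63 over all X loci, and 6.62 in replicate 2, against 4.08. The weakest of the 13 had fold enrichments of 2.34 and 2.43, so strong and weak loci stood side by side there. The stretch was noticed after its values were seen, and no test was made. No such stretch of the autosome arms is set beside it, so whether it is unusual is not known. Its medians include the 4 loci by which it was picked and are not independent of that choice. Among windows of 1 Mb, the one with 43 loci had median fold enrichments of 3.33 and 4.16, while that beginning 5 Mb from the first locus held 22 loci with medians of 4.93 and 5.52, the highest of the whole windows in both lists. The window beginning at 17 Mb held 28 loci with medians of 4.53 and 5.30, and the emptiest, with 9 loci, had 2.61 and 3.44.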
